A study of Mus musculus with 19 samples.

Results

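The 10 genes described here mark macrophages, their resident subsets and their lipid-handling state: Adgre1, Cd68, Csf1r, Lyz2, Mrc1, Timd4, Marco, Trem2, Gpnmb and Itgax. They were chosen by symbol, and all 10 were found in each of 3 expression tables, of 55573 genes for the 7 tissues, 13756 for cold inguinal white adipose tissue (iWAT) and 55487 for cold brown adipose tissue (BAT). The values are FPKM, the fragments mapped to a gene scaled by its length and by the library's total, so a level per length of transcript, measured by RNA-seq in 19 libraries. The first table holds 1 library each from heart, brain, tibialis anterior muscle, liver, small intestine, white adipose tissue and brown adipose tissue of wild-type (WT) mice with no stated treatment. The other tables hold 3 WT and 3 MCK-Musclin libraries each, from iWAT and from BAT of male, chow-fed mice aged 5 months and kept at 8 °C for 1 week. MCK-Musclin mice carry the coding sequence of Musclin, a hormone released by muscle, under the murine muscle creatine kinase promoter on a C57BL/6J background. Which of the founder lines was sequenced, the age of the 7-tissue mice and the depot of their white adipose tissue were not given in the sources used here.

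Macrophages develop and survive through Csf1r, the receptor for the growth factors Csf1 and Il34. Tissue-resident macrophages of fat, liver and lymph node carry scavenger and clearance receptors: Mrc1 is the mannose receptor, Timd4 binds phosphatidylserine on dying cells, and Marco binds bacteria and particles. Lipid-associated macrophages of adipose tissue instead express Trem2, a lipid-sensing receptor that signals through the adaptor Tyrobp and the kinase Syk, together with the lysosomal glycoprotein Gpnmb and the integrin Itgax, which dendritic cells share. Adgre1 is the classical surface antigen of mouse macrophages, Cd68 a lysosomal membrane glycoprotein, and Lyz2 the lysozyme of myeloid cells.

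Lyz2 has a near copy, Lyz1, on chr10, which matters for every Lyz2 value. Lyz2 lies at chr10:117277331-117282321 and Lyz1 at chr10:117287797-117292868, both on the minus strand of GRCm38 in GENCODE M21. The first 240 of their 447 coding bases (GENCODE M21) are shown because reads from stretches they share can be placed on either gene. Capitals mark the positions at which they differ, 17 of them here.
Lyz2: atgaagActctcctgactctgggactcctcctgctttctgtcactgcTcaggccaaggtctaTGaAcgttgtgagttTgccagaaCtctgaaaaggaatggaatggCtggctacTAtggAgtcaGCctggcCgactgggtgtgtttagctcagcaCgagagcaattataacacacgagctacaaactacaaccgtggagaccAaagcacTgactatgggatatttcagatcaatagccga
Lyz1: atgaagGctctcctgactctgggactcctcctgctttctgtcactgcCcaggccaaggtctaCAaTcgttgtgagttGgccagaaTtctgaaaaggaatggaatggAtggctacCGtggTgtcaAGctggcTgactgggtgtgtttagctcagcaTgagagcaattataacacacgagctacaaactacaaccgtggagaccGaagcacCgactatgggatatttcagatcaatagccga
Over the whole coding sequence they differed at 22 positions, were 95.1% identical, and had a longest run without a difference of 118 bases. How the authors' counting treated reads that fit both genes is not given in the sources used here, so Lyz2 is given with Lyz1 wherever Lyz1 was high.

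Timd4 and Marco, the resident receptors that were far higher in cold iWAT than in the other fat libraries, are shown with the 250 bases before their RefSeq start sites on GRCm38.p6. Capitals mark the letters GGAAGT or GAGGAA on either strand, forms of the site bound by ETS factors such as PU.1 (Spi1), which were searched after the windows had been read; the forms may overlap.
Timd4, chr11:46810549-46810798, plus strand: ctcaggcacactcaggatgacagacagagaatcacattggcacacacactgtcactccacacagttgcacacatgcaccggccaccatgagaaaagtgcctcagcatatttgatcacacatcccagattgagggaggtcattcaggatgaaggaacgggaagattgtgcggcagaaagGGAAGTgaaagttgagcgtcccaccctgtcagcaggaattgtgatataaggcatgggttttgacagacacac
Marco, chr1:120505025-120505274, minus strand: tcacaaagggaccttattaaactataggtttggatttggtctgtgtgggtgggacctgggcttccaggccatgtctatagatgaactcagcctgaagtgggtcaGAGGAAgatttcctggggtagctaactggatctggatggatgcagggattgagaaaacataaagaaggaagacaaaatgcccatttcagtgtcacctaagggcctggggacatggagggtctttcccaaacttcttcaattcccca
Of the 8 members with such a window, 7 held at least 1 of the forms, and over the 32841 windows of all genes 36.7% did. GGAAGT was in 4 of the 8 and GAGGAA in 4, against 19.7% and 23.3% of all windows. Since the search followed the reading of the windows, these counts are a description and not a test. Adgre1 and Csf1r were not matched in the RefSeq table. A match describes letters and not a bound site.

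In the 7 WT tissues, white adipose tissue had the highest level of 8 of the 10 genes. Among all 18327 genes that reached an FPKM of 1 in some tissue, 20.2% were highest there. There was 1 library per tissue, so no test was possible and no spread can be given.

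The pan-macrophage genes shared white adipose tissue as their highest tissue, while the second place went to liver for Adgre1 and to small intestine for Cd68, Csf1r and Lyz2. Adgre1 was 9.58 FPKM in white adipose tissue, 4.13 in liver, 3.98 in small intestine, 1.698 in brown adipose tissue, 1.14 in heart and 1.10 in brain, and was listed at 0 in tibialis anterior. Cd68 ran from 48.6 FPKM in white adipose tissue through 25.3 in small intestine, 21.3 in liver, 15.9 in brown adipose tissue, 11.9 in brain and 6.29 in heart to 2.47 in tibialis anterior. White adipose tissue thus stood 2.32 times above the next tissue for Adgre1 and 1.92 times for Cd68. Csf1r was 29.0 FPKM in white adipose tissue, 11.2 in small intestine, 7.83 in brain, 7.58 in liver, 4.08 in brown adipose tissue, 2.72 in heart and 0.898 in tibialis anterior. The brain ranked higher for Csf1r than for Adgre1; brain macrophages are the microglia, and P2ry12, a microglial receptor, was 30.4 FPKM there. Lyz2 reached 336 FPKM in white adipose tissue against 83.1 in small intestine, 56.9 in brown adipose tissue, 39.6 in heart, 36.3 in liver, 12.7 in tibialis anterior and 5.55 in brain.

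The lysozyme pair split the tissues. Lyz1, the lysozyme of Paneth cells in the gut, was 1070 FPKM in small intestine and 33.5 in white adipose tissue, and at most 2.07 in the others. It made up 92.8% of the summed FPKM of both genes in small intestine and 9.07% in white adipose tissue. The small intestinal Lyz2 level is therefore the least certain of the 7.

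Resident receptors separated liver and white adipose tissue from the rest. Mrc1 was 44.2 FPKM in white adipose tissue, 12.6 in liver, 5.48 in brown adipose tissue, 4.02 in heart, 3.36 in small intestine, 1.24 in brain and 0.781 in tibialis anterior. Timd4 was almost level between white adipose tissue (5.99 FPKM) and liver (5.31), a ratio of 1.13, and liver was the higher of the pair under median-ratio scaling. It was 2.14 FPKM in small intestine and under 1 elsewhere. Marco was found in only 2 of the 7 tissues, at 7.60 FPKM in liver and 2.13 in white adipose tissue, and was listed at 0 in the other 5. Kupffer cells, the macrophages of the liver, also express Clec4f, Vsig4 and Cd5l, which were 30.9, 37.6 and 53.5 FPKM in the liver library and 0, 2.41 and 0.797 in white adipose tissue.

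Of the lipid-associated genes, Trem2 and Gpnmb had the largest share of their summed level in white adipose tissue among the 10 genes, and Itgax, with 20.4%, the smallest. Trem2 was 10.1 FPKM there, or 70.4% of its sum over the 7 tissues, then 2.70 in brain, 0.810 in brown adipose tissue and 0.432 in liver. Gpnmb was 16.5 FPKM in white adipose tissue, or 65.6% of its sum, 4.12 in small intestine, 1.77 in the brown fat library and under 1 in the other 4. Liver, which was second to white adipose tissue for Adgre1, Mrc1 and Timd4, had the lowest Gpnmb level, at 0.167 FPKM. Itgax was 10.6 FPKM in small intestine, 3.14 in white adipose tissue and 0.981 in the brown fat library, with at most 0.295 elsewhere. Per unit of Adgre1, white adipose tissue held 1.051 of Trem2 and 1.72 of Gpnmb, brain 2.46 and 0.877, and liver 0.105 and 0.0405.

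**Figure D1:**
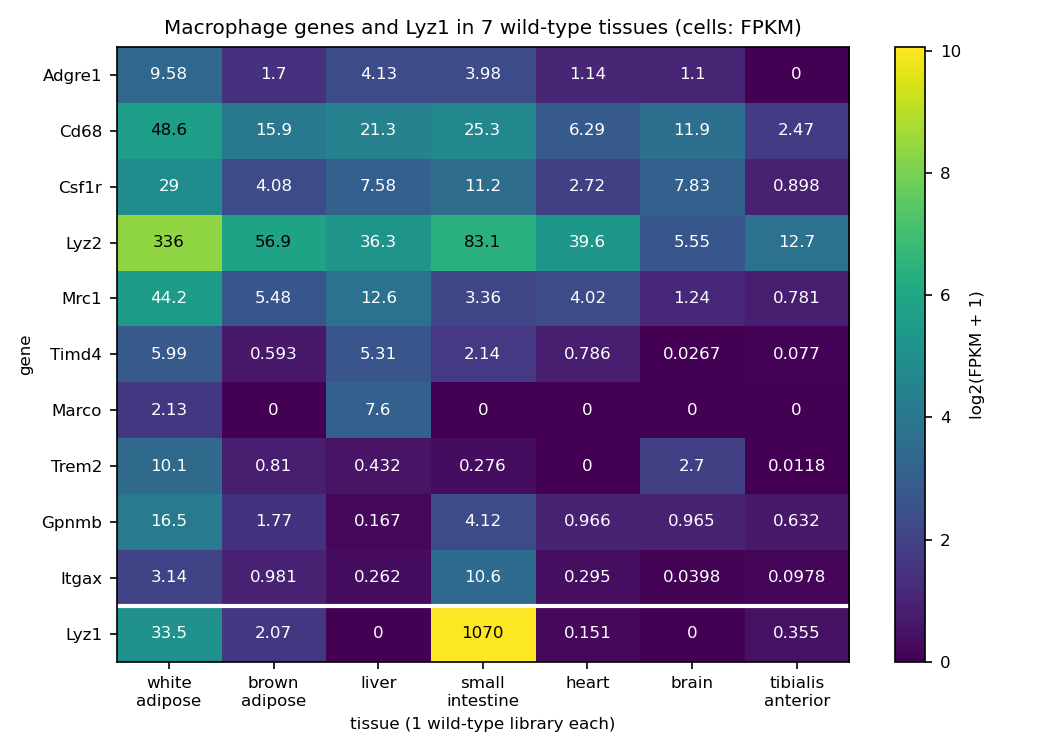
FPKM of the 10 macrophage genes and of Lyz1 (rows) in 1 wild-type library of each of 7 tissues (columns), with the colour giving log2(FPKM + 1). White adipose tissue is highest for 8 of the 10 genes, Marco is highest in liver at 7.60 FPKM and Itgax in small intestine at 10.6 FPKM.

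Members resembled each other to different degrees over the tissues. Pearson's r of log2(FPKM + 1) across the 7 libraries, a description that mixes differences of cell type and library, had a median of 0.691 over the 45 pairs, from -0.0681 for Marco with Itgax to 0.962 for Adgre1 with Cd68. Timd4 went with Adgre1 (r = 0.909) and Marco with Timd4 (r = 0.818). Among the 13444 genes that reached 5 FPKM in some tissue, the pattern most like that of Csf1r was Ndst2 (r = 0.997), followed by C1qb (0.989), a complement gene of macrophages, and Fkbp15 (0.988). Nearest to Adgre1 were Fam114a1, Zfp110 and Eapp (r = 0.983 to 0.992), to Cd68 Pdcl, Ext1 and Tbc1d2b (0.991 to 0.993), to Lyz2 Lilrb4a, Ifi211 and Card10 (0.983 to 0.990), and to Mrc1 Pxmp4, Kank1 and Cpq (0.966 to 0.978). For Timd4 these were Wfdc17, Fcgr2b and Lcn2 (0.986 to 0.997), for Marco Fam25c, Wfdc21 and Sfxn2 (0.987 to 0.999), for Trem2 Smim1, Mir3101 and Tshz2 (0.981 to 0.990), for Gpnmb Ppig, Adgrd1 and Crtc3 (0.987 to 0.995), and for Itgax Mgst2, Tmc6 and Ighj3 (0.993 to 0.995). With 7 points, many genes reach such values.

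Before the genotype comparison, some libraries stood apart. Musclin (Ostn) was 30.3 to 37.9 FPKM in the 3 BAT libraries labelled MCK-Musclin and listed at 0 in their 3 WT libraries. In iWAT it was 5.17 and 4.21 FPKM in the libraries labelled MCK-Musclin 2 and 3, but was listed at 0 in the library labelled MCK-Musclin 1, and was 0, 0 and 0.225 in WT. The transgene is driven in muscle, and 10 fast-muscle genes summed to 11.1 FPKM in that library, to 158 and 188 in the other MCK-Musclin iWAT libraries, and to 10.9, 819 and 4645 in WT; the part of muscle RNA in the Ostn level was not tested. The library also resembled WT in 8 brown and beige fat genes, which summed to 644 FPKM in it, 225.5 and 119 in MCK-Musclin libraries 2 and 3, and 573 to 1068 in WT. Ucp1, the uncoupling protein of thermogenic fat, was 173 FPKM in it against 31.6 and 2.91, and 130 to 346 in WT. Neither Ostn nor these genes thus set this library apart from WT, and counts are also given without it. The 11 adipocyte genes summed to 14580 to 15950 FPKM in WT and 12830 to 14550 in MCK-Musclin iWAT, and to 8476 to 9181 and 7949 to 8681 in BAT, so both labelled fats carried adipocyte RNA. The study's reporting summary gives its RNA-seq samples as coming from independent animals; whether iWAT and BAT came from the same mice is not given in the sources used here.

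Cold iWAT lay far above the 7-tissue white adipose library in Marco and Timd4, but not in Mrc1. Marco was 64.0 to 231 FPKM in the 6 cold iWAT libraries against 2.13 in the white adipose library, and Timd4 was 30.0 to 68.8 against 5.99. Most other members lay closer: Adgre1 was 6.32 to 9.29 against 9.58, Mrc1 29.1 to 47.9 against 44.2, Lyz2 320 to 507 against 336, and Gpnmb 12.3 to 23.0 against 16.5. Csf1r was 21.3 to 31.2 FPKM against 29.0, and Itgax 2.52 to 5.67 against 3.14. Cd68 ran from 44.0 to 115 FPKM against 48.6. Trem2 was lower in cold iWAT, at 2.34 to 5.12 FPKM against 10.1. The tables were scaled separately, depot and temperature also separate them, and no test was made. Lymphocyte genes moved the same way as Marco and Timd4: 10 B cell genes summed to 172 to 494 FPKM in cold iWAT and to 6.82 in the white adipose library, and Glycam1, made by lymph node vessels, was 7.74 to 18.1 against a listed 0. Ccl21a, another lymph node gene, was 46.3 to 92.3 FPKM in cold iWAT and 26.2 and 34.9 under separate entries in the white adipose library. The lymph node genes summed to 71.3 FPKM in that library and to 174 to 612 in cold iWAT. Their part in the difference was not tested.

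In cold BAT, members were low. Marco was at most 0.381 FPKM and was listed at 0 in 3 of the 6 libraries, Timd4 was 0.117 to 0.483, and Itgax 0.0369 to 0.528. Adgre1 was 0.788 to 3.03 FPKM against 1.698 in the 7-tissue brown adipose library, and Lyz2 17.3 to 79.4 against 56.9. In BAT the 10 B cell genes summed to at most 1.40 FPKM, and Glycam1 was listed at 0 in all 6 libraries.

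The comparison of MCK-Musclin with WT mice asks whether the Musclin transgene goes with a change in fat. Ostn RNA was also found in fat, at 30.3 to 37.9 FPKM in the MCK-Musclin BAT libraries, and the tissue source of the Musclin was not tested. In iWAT, 3 of the 10 genes rose past the cutoff of an unadjusted p under 0.05 and a log2 change above 0.5: Cd68, Timd4 and Itgax. Past that cutoff in the higher direction were 5.04% of the 12197 genes tested, and 0.902% in the lower. None of the table's genes (0.00%) passed an adjusted p under 0.05 in limma's moderated test with Benjamini-Hochberg adjustment, in which the smallest was 0.0912, while 2012 genes (16.5%) had an unadjusted p under 0.05. All 10 fitted changes were above 0 on the deposited scale, with Mrc1 below 0 under TPM rescaling and median-ratio scaling, and so were 61.3% of all genes, whose median change was 0.061.

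Among pan-macrophage genes in iWAT, Cd68 was 81.1, 44.0 and 65.9 FPKM in WT and 115, 75.6 and 113 in MCK-Musclin. Library 1 of WT exceeded library 2 of MCK-Musclin, so the groups overlapped. On the log2(FPKM + 1) scale, used for all changes below and smaller than the true change for low genes, Cd68 rose by 0.68 ± 0.25 (SE, n = 3 per group; limma adjusted p = 0.250). Lyz2 was 366, 335 and 320 FPKM in WT against 493, 366 and 507, and its groups were barely apart, between 366.1 and 366.4 FPKM. Its change of 0.41 ± 0.15 (limma adjusted p = 0.242) stayed under the log2 cutoff. Lyz1 was 11.6 to 16.8 FPKM in WT and 16.5 to 29.5 in MCK-Musclin, or 3.15% to 7.45% of both lysozymes.

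Adgre1 and Csf1r changed with intervals that included 0. Adgre1 was 6.85, 8.31 and 7.85 FPKM in WT and 9.29, 6.32 and 9.14 in MCK-Musclin, with a log2 difference of 0.080 and a 95% confidence interval from -0.29 to 0.45. Csf1r was 21.8, 25.4 and 21.3 FPKM against 31.2, 22.0 and 27.5, a difference of 0.22 (-0.12 to 0.56). In both, the low MCK-Musclin library was library 2, inside or under the WT range. The growth factors of Csf1r had log2 changes near 0, between -0.0036 and 0.019. Csf1 was 19.0 ± 1.97 FPKM (SD, n = 3) in WT and 19.4 ± 2.88 in MCK-Musclin, and Il34 2.32 ± 0.682 and 2.35 ± 0.872.

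**Figure D2:**
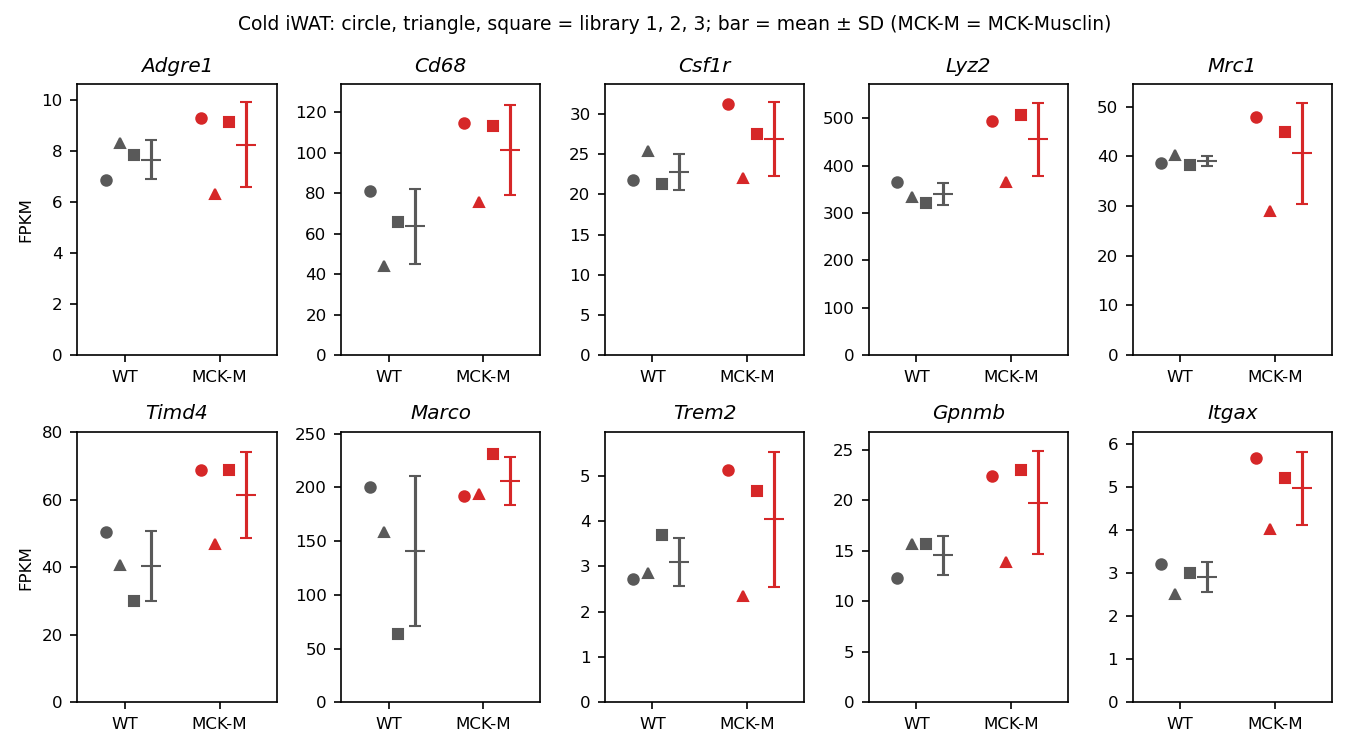
FPKM of each of the 10 genes in cold iWAT (each panel has its own axis from 0), with WT in grey and MCK-Musclin (MCK-M) in red, symbols for libraries 1 to 3 and bars for the mean ± SD of 3. Itgax and Lyz2 are the genes in which every MCK-Musclin library lies above every WT library, and the triangle of MCK-Musclin library 2 is the lowest of its group for 9 of the 10 genes.

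Among the resident receptors, Timd4 was 50.6, 40.7 and 30.0 FPKM in WT and 68.7, 46.9 and 68.8 in MCK-Musclin. Its log2 rise was 0.60 ± 0.22 (limma adjusted p = 0.250), with overlap between WT library 1 and MCK-Musclin library 2; under median-ratio scaling it was 0.52 and no longer passed the cutoff. Marco was 201, 158 and 64.0 FPKM in WT and 192, 194 and 231 in MCK-Musclin. The fitted change of 0.69 was the largest of the 10, but its interval ran from -0.21 to 1.59 (limma adjusted p = 0.411), and WT library 1 was above 2 of the MCK-Musclin libraries. WT library 3 was lowest for both Timd4 and Marco and for Cd5l, which resident macrophages secrete, at 4.36 FPKM against 11.6 to 30.3 in the others; without it the Timd4 change was 0.41, no longer past the cutoff, and the Marco change 0.20. The same library had the highest sum of fast-muscle genes, 4645 FPKM, whose part was not tested. Mrc1 was 38.6, 40.3 and 38.2 FPKM against 47.9, 29.1 and 45.0, a change of 0.025 (-0.40 to 0.45), and its sign turned under TPM rescaling and median-ratio scaling.

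Among the lipid-associated genes, Itgax was 3.21, 2.52 and 3.00 FPKM in WT and 5.67, 4.02 and 5.19 in MCK-Musclin. Every MCK-Musclin library was above every WT library, as in 17.9% of all genes tested, and the log2 rise was 0.60 ± 0.14 (limma adjusted p = 0.149). Gpnmb was 12.3, 15.7 and 15.6 FPKM against 22.4, 13.9 and 23.0, a change of 0.39 (-0.081 to 0.86). Trem2 was 2.72, 2.85 and 3.70 FPKM against 5.12, 2.34 and 4.65, a change of 0.26 (-0.30 to 0.82). Both had high values in MCK-Musclin libraries 1 and 3 and a value within or below the WT range in library 2.

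Single libraries decided the iWAT count. Without MCK-Musclin library 2, 6 of the 10 genes passed the cutoff (Cd68, Lyz2, Timd4, Trem2, Gpnmb and Itgax), and without MCK-Musclin library 1, MCK-Musclin library 3 or WT library 2, Itgax alone passed. It also passed without WT library 1 or 3, and its change ranged from 0.51 to 0.72 over these fits. MCK-Musclin library 2 was above all WT libraries for 2 members and below all for 3, whereas libraries 1 and 3 were above all for 9 and 10. Over all genes tested the 3 libraries were above all WT libraries in 34.6% to 41.0%.

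Expressed per unit of Adgre1, a gene whose own change was near 0, 4 members rose without overlap between the groups in iWAT. Such a pattern was found in 3.07% of all genes, and in 17.9% before the division. Adgre1 is itself a member and, like most members, was lowest of its group in MCK-Musclin library 2. Dividing by it raised that library relative to libraries 1 and 3 for every gene. The 3.07% is therefore not a neutral background for the members. The ratio of Cd68 was 8.51 ± 3.27 (SD, n = 3) in WT and 12.2 ± 0.241 in MCK-Musclin, that of Timd4 5.37 ± 1.83 and 7.45 ± 0.0752, that of Gpnmb 1.89 ± 0.0949 and 2.38 ± 0.164, and that of Itgax 0.385 ± 0.0828 and 0.605 ± 0.0342. For Timd4 the nearest libraries were 7.391 in WT and 7.396 in MCK-Musclin, and for Cd68 11.84 and 11.96. The ratio of Mrc1 was 5.12 ± 0.453 and 4.89 ± 0.279, with overlap. No test was made on these ratios.

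Genes around the members behaved unevenly in iWAT. Of 19 further macrophage genes, all tested, 4 rose past the cutoff and none fell: Aif1, an actin-binding protein, by 0.76, the protease Ctss by 0.77, the lysosomal protein Laptm5 by 0.55 and the transcription factor Spi1 by 0.50. Their list had a median change of 0.31. Laptm5 was 32.9 ± 1.17 FPKM (SD, n = 3) in WT and 48.6 ± 2.46 in MCK-Musclin; B and T cells also express Laptm5, and B cells also Spi1 and Ctss. The complement genes C1qa, C1qb and C1qc changed by 0.22 to 0.29 and did not pass. Of 14 further resident genes, 13 were in the table and tested, and none passed in either direction (median 0.21); Lyve1 was 58.6 ± 7.01 against 70.5 ± 18.1 FPKM, and Cd163 39.4 ± 14.2 against 34.0 ± 4.62.

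Of 18 further lipid-associated genes, 2 rose past the cutoff and none fell, and the median was 0.0091. Mmp12, a macrophage elastase, was 0.296, 0.345 and 1.03 FPKM in WT and 2.80, 1.80 and 4.16 in MCK-Musclin, a rise of 1.32 ± 0.27 (limma adjusted p = 0.143). Its WT mean was under 1 FPKM, so it met the filter only through the MCK-Musclin libraries in which it was high. Atp6v0d2, a subunit of the proton pump of lysosomes, rose by 0.53. Among genes of the list that adipocytes also express, Lpl changed by -0.32, Plin2 by -0.42 and Cd36 by -0.25, short of the cutoff. Of the 5 Trem2 signalling genes, 3 rose past the cutoff: Syk by 0.62, Plcg2 by 0.76 and Inpp5d by 0.53. Tyrobp, the adaptor of Trem2, changed by 0.37 (limma adjusted p = 0.333) and Apoe, a ligand, by 0.24. B cells also express Syk, Plcg2 and Inpp5d, and the median of this list was 0.53. Of 10 activation genes, 7 were in the table and 5 were tested, with none past the cutoff; Retnla was 161 ± 26.3 FPKM in WT and 185 ± 22.0 in MCK-Musclin, and Il1b 3.21 ± 2.88 and 4.70 ± 1.35.

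Markers of other cell types moved with these changes, upward for lymphocytes and lymph node and downward for adipocytes. All 10 B cell genes rose past the cutoff (median 0.90), as did 7 of 11 T cell genes (median 0.63) and 6 of 6 lymph node genes (median 0.86), and none of them fell. These lists, like the others used here, were chosen with earlier results of these data known. The summed B cell level was 172 to 336 FPKM in WT and 380 to 494 in MCK-Musclin, the T cell sum 115 to 172 and 221 to 251, and the lymph node sum 174 to 359 and 390 to 612. Glycam1 was 7.74, 9.35 and 9.96 FPKM in WT and 18.1, 14.9 and 17.4 in MCK-Musclin. All 11 adipocyte genes had changes below 0 (median -0.25), with none past the cutoff. Of the 8 brown and beige fat genes, 5 fell past the cutoff (median -1.37), among them Ucp1 by 3.00 and Cidea by 1.45, and their sum was 0.76, 0.266 and 0.14 times the WT mean in MCK-Musclin libraries 1, 2 and 3. Of 8 dendritic cell genes, 2 rose past the cutoff (median 0.21), and of 4 neutrophil genes in the table, 2 did. Among the neutrophil genes, S100a8 was 1.49, 0.410 and 0 FPKM in WT and 3.48, 6.73 and 1.69 in MCK-Musclin. Ngp was 0.459, 0.114 and 1.06 FPKM against 5.22, 7.59 and 0.846. Both had a WT mean under 1 FPKM and met the filter only through MCK-Musclin libraries. The library labelled MCK-Musclin 2, lowest for most members, had the highest sum for B and T cells. The part of any of these cell types in the changes of Cd68, Timd4, Marco and Itgax was not tested. In bulk tissue, more macrophages and more RNA per macrophage cannot be told apart.

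**Figure D3:**
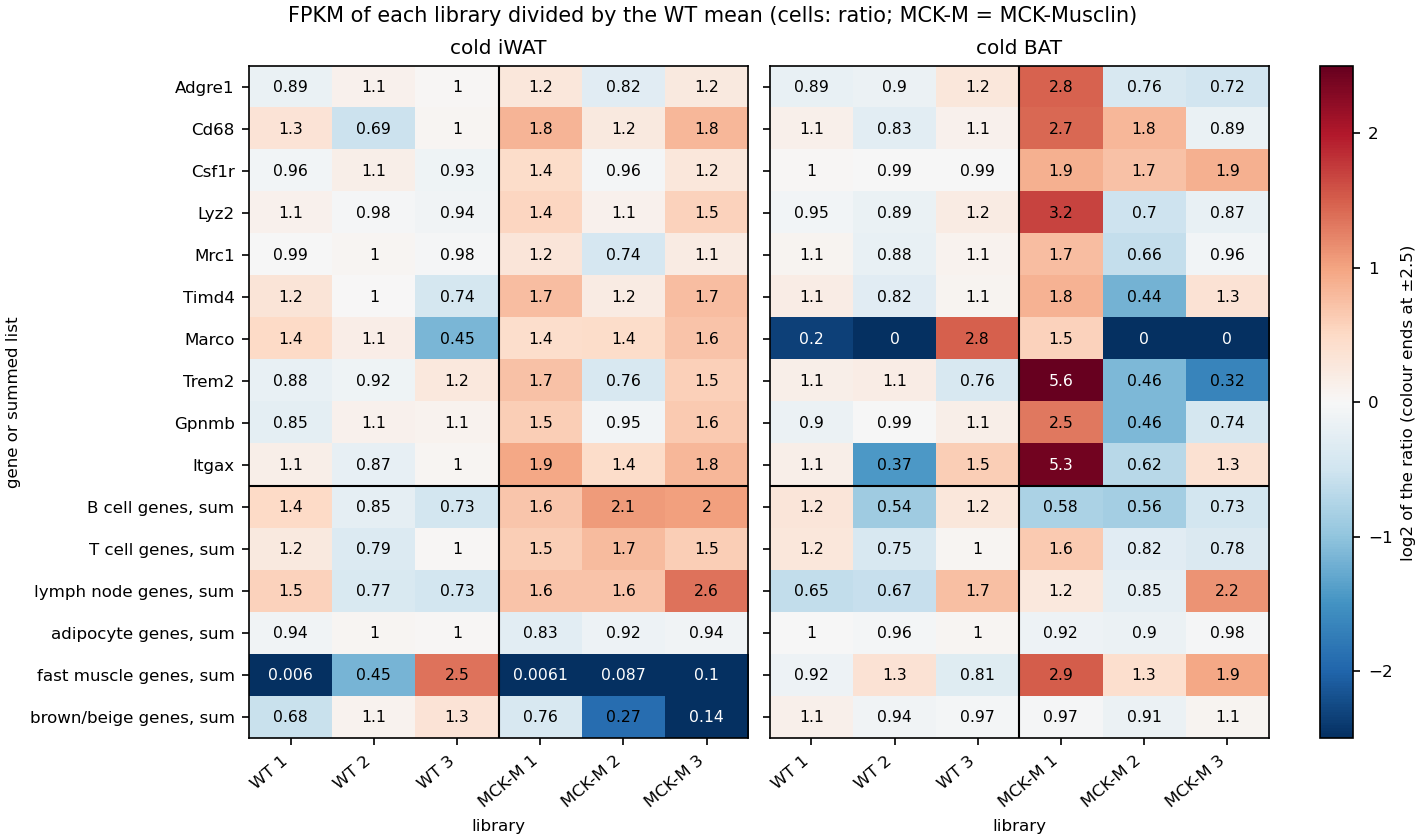
FPKM of each library divided by the WT mean of its tissue, for the 10 genes and for 6 summed marker lists, in cold iWAT (left) and cold BAT (right); colour is the log2 ratio and MCK-M is MCK-Musclin. In iWAT the sums of lymphocyte and of lymph node genes are above 1.5 in all 3 MCK-Musclin libraries, and in BAT MCK-Musclin library 1 reaches 5.62 for Trem2 while libraries 2 and 3 are at 0.457 and 0.319.

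In BAT, 1 gene of the 10 rose past the cutoff, which there was an unadjusted p under 0.05 and a log2 change above 0.3. It was Csf1r. The filter of a mean of 1 FPKM left 6 genes to test, since Timd4, Marco, Trem2 and Itgax were below it. Of the 10893 genes tested, 1.85% passed this cutoff in the higher and 2.15% in the lower direction. An unadjusted p under 0.05 was found for 4.89%, and an adjusted p under 0.05 in limma for 1 gene (0.00918%). The fitted changes of the 6 genes were above 0, Gpnmb being below it with smaller pseudocounts, and so were those of 47.7% of all genes.

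Csf1r was 2.08, 2.03 and 2.02 FPKM in the BAT of WT mice and 3.79, 3.41 and 3.78 in that of MCK-Musclin mice. All 3 MCK-Musclin libraries lay above WT, with an SD of 0.0353 in WT and 0.218 in MCK-Musclin, and 4.38% of all genes had groups placed so. The log2 rise was 0.61 ± 0.11 (SE, n = 3 per group; limma adjusted p = 0.880). It ranged from 0.59 to 0.65 with any 1 library left out. Fast-muscle genes moved with it: 9 of 10 rose past the cutoff (median 0.87), and their sum was 820 to 1767 FPKM in MCK-Musclin and 497 to 784 in WT. Their part in the Csf1r change was not tested. Csf1r shares 873 exonic bases on GRCm38 with Hmgxb3, a gene on the opposite strand, and counting without strand cannot separate reads there; Hmgxb3 was 1.56 to 2.25 FPKM in WT and 1.69 to 1.98 in MCK-Musclin. Its ligand Csf1 was 2.79 ± 0.854 FPKM (SD, n = 3) in WT and 3.45 ± 0.381 in MCK-Musclin.

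For the other genes, MCK-Musclin library 1 stood apart from both others. Lyz2 was 23.5, 21.9 and 28.5 FPKM in WT and 79.4, 17.3 and 21.5 in MCK-Musclin. Adgre1 was 0.967, 0.981 and 1.33 FPKM against 3.03, 0.831 and 0.788, and Gpnmb 1.704, 1.87 and 2.09 against 4.70, 0.868 and 1.40. Library 1 was thus the high one each time, and both others were below all WT libraries. Trem2 was 0.336, 0.349 and 0.232 FPKM in WT and 1.72, 0.140 and 0.0974 in MCK-Musclin, in the same arrangement. Mrc1 was 3.48, 2.91 and 3.57 FPKM against 5.63, 2.18 and 3.18, and Cd68 5.29, 4.03 and 5.28 against 13.2, 8.63 and 4.32. Cd68 was high in 2 MCK-Musclin libraries and within the WT range in library 3.

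The fitted changes were 0.18 for Adgre1 (95% confidence interval -0.54 to 0.90), 0.62 for Cd68 (-0.13 to 1.38), 0.33 for Lyz2 (-0.84 to 1.504), 0.047 for Mrc1 (-0.54 to 0.64) and 0.031 for Gpnmb (-0.85 to 0.91). Library 1 was above all WT libraries for 9 of the 10 genes, with a median of 2.60 times the WT mean, while libraries 2 and 3 had medians of 0.638 and 0.881. Over all genes tested, library 1 was above all WT libraries in 28.6%. Without it the change was -0.33 for Lyz2, -0.24 for Mrc1 and -0.45 for Gpnmb, Adgre1 was under the filter, and Csf1r was 0.59. Gpnmb then passed the cutoff in the lower direction, so that 2 genes passed. Library 1 also had the highest sum of 10 fast-muscle genes, 1767 FPKM against 820 and 1201 in libraries 2 and 3 and 497 to 784 in WT; the part of this was not tested. Its B cell sum, 0.659 FPKM, lay among those of the other BAT libraries.

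**Figure D4:**
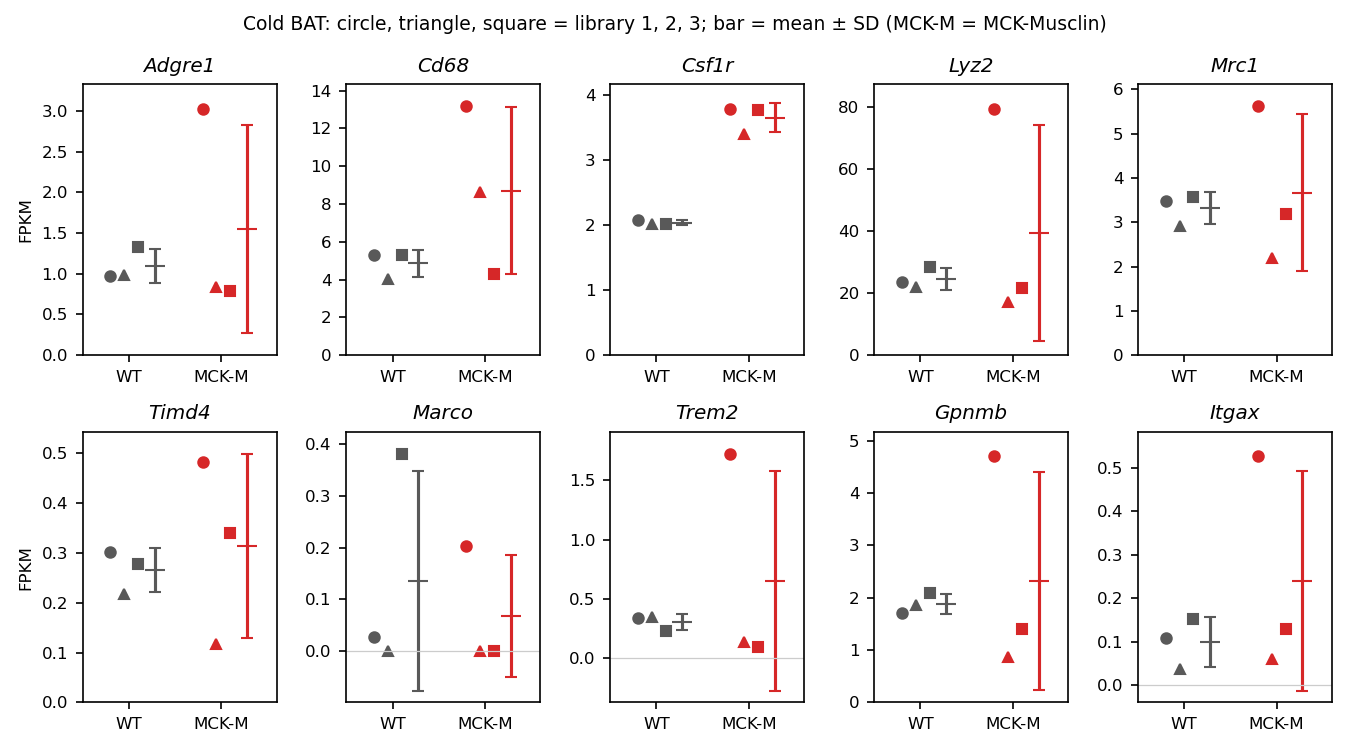
FPKM of each of the 10 genes in cold BAT (each panel has its own axis), with WT in grey and MCK-Musclin (MCK-M) in red, symbols for libraries 1 to 3 and bars for the mean ± SD of 3. Csf1r separates all 3 MCK-Musclin libraries from WT, whereas for Lyz2 only the circle of MCK-Musclin library 1, at 79.4 FPKM, is above WT.

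Low members of BAT are given as values. Itgax was 0.110, 0.0369 and 0.152 FPKM in WT and 0.528, 0.0615 and 0.129 in MCK-Musclin, Timd4 0.301, 0.217 and 0.278 against 0.483, 0.117 and 0.341, and Marco 0.0271, 0 and 0.381 against 0.204, 0 and 0. The groups overlapped in each.

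Of the further lists in BAT, 14 of 19 macrophage genes were tested and none passed (median 0.030). Of 14 resident genes, 9 were tested and 1 rose: Folr2, a folate receptor of resident macrophages, at 1.42, 1.01 and 1.51 FPKM in WT and 3.07, 1.67 and 2.35 in MCK-Musclin, by 0.53 ± 0.19 (limma adjusted p = 0.968). The list's median was 0.31, and that of all genes was -0.0084. Of 18 lipid-associated genes, 15 were tested and 1 fell, the acid phosphatase Acp5, from 46.3 ± 8.39 to 32.8 ± 1.14 FPKM (median of the list -0.030). Of the 5 Trem2 signalling genes, Tyrobp and Apoe were tested, with changes of -0.36 and -0.27 and neither past the cutoff.

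**Figure D5:**
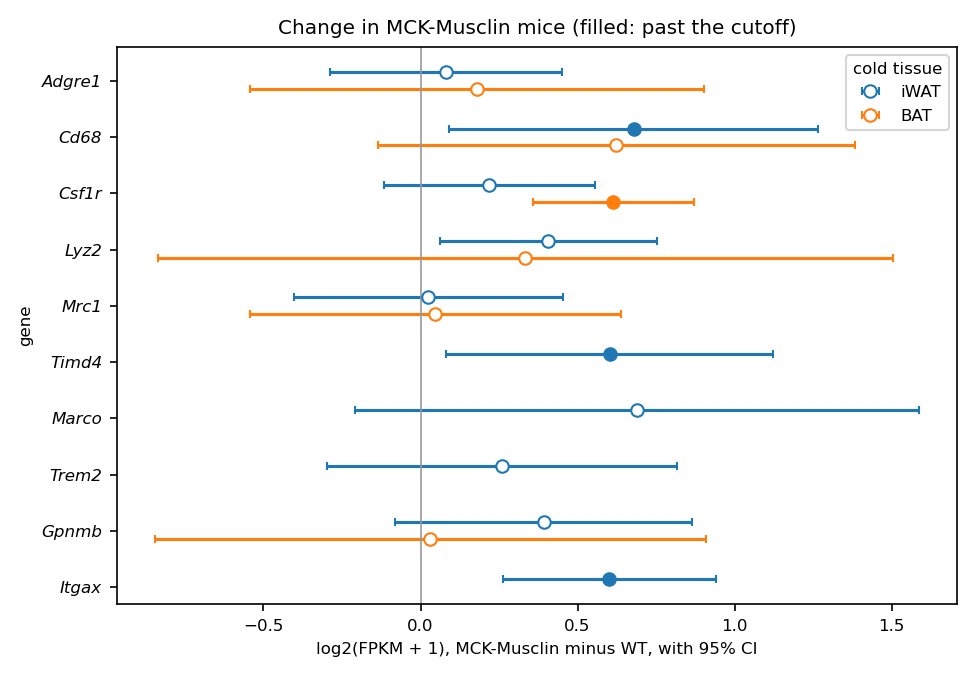
Change of each gene in MCK-Musclin against WT mice on the log2(FPKM + 1) scale (horizontal axis), with 95% confidence intervals from limma over 3 libraries per group, for cold iWAT (blue) and cold BAT (orange); filled points passed the cutoff of their tissue. Cd68, Timd4 and Itgax are filled in iWAT and Csf1r in BAT, and 4 genes have no BAT point because they were below the filter.

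Side by side, Csf1r was 0.22 in iWAT and 0.61 in BAT, Cd68 0.68 and 0.62, Lyz2 0.41 and 0.33, Gpnmb 0.39 and 0.031, Mrc1 0.025 and 0.047, and Adgre1 0.080 and 0.18. The difference between the tissues was not tested, since the tables were scaled separately. For each of the 6 genes the interval of one tissue overlapped that of the other.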

How the data were processed

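RNA was extracted with a column kit for white fat and with TRIzol for the other tissues, per the labels, so white fat differs in extraction from all other tissues, BAT included. Per the study's methods, reads were aligned with HISAT2 to mm10 with Ensembl annotation and counted without strand, and FPKM came from StringTie. Per the labels the tools included fastp, Bowtie2 2.4.1, HISAT2 2.1.0 and Cuffdiff. Which tool gave the deposited FPKM is not settled by the sources used here. The authors deposited FPKM for every gene and library, a normalized level and not counts, so depth is unknown and no counting interval is given. Columns of the authors' own comparisons (log2 fold changes, p-values and FDR), deposited beside the FPKM, and 3 columns of their means were not used.

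From the deposited FPKM, 287 repeated lines were dropped from each of the 7-tissue and BAT tables. The 13756 genes of the iWAT table include no mitochondrially encoded genes. Genes with a mean of at least 1 FPKM were tested on log2(FPKM + 1) with limma 3.58.1 (trended, R 4.3.3) and two-sided p-values, Benjamini-Hochberg adjusted over all genes tested; count models of the study's kind could not be used. Tables were never tested against each other. The cutoffs are p under 0.05 with a log2 change above 0.5 (iWAT) or 0.3 (BAT). The named genes are the 10 members, genes of the lists of related genes and cell type markers, the 3 genes most like each member over the tissues, and Lyz1; Ostn and Hmgxb3 were added as checks, after their values were seen. The members and lists were chosen with earlier results of these data known. The alternatives were other pseudocounts, filters, scalings, an untrended fit, a replicate block and leaving out each library. The steps were tested on simulated data.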

Additional observations from a re-analysis of the deposited data

How the results depend on the processing

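In the 7 tissues the count of genes highest in white adipose tissue, or in white or brown adipose tissue, was 8 as deposited and after TPM rescaling, with or without mitochondrially encoded genes (the latter added after the data were seen), and 7 with median-ratio scaling, where Timd4 was highest in liver. In iWAT the count of 3 became 6 when libraries were centred on the adipocyte genes, a scaling that moved the median of all genes by over 0.1, to 0.29, and let 2144 of the 12197 genes pass in the higher direction in place of 615; it was 2 with median-ratio scaling, where Timd4 (0.52) did not pass, and ranged from 1 to 6 with single libraries left out. In BAT the count of 1 became 2 with no filter (a fit that limma reported as unreliable, with most residual variances at 0), 0 with a mean of at least 5 FPKM, where Csf1r was no longer tested, and 2 when centred on the adipocyte genes; it ranged from 1 to 2 with single libraries left out. Some signs turned. In iWAT Mrc1 was -0.028 with TPM and -0.053 with median-ratio scaling, and -0.11 and -0.062 without MCK-Musclin replicates 1 and 3; Adgre1 was -0.0057 without MCK-Musclin replicate 1; over single libraries left out Mrc1 reached 0.24 and Adgre1 0.24 at most. In BAT Gpnmb was -0.052 and -0.070 with pseudocounts of 0.1 and 0.01, -0.015 without WT replicate 1 and -0.45 without MCK-Musclin replicate 1; Mrc1 was -0.023 without WT replicate 2 and -0.24 without MCK-Musclin replicate 1, and Lyz2 -0.33 without the latter; the highest values with a library left out were 0.36, 0.29 and 0.74 for these genes. The cause was not tested. With the replicate block the counts were 3 in iWAT and 1 in BAT. To look for pairing, each gene's group mean of log2(FPKM + 1) was subtracted, and what was left was correlated between WT and MCK-Musclin libraries. For same-numbered libraries these correlations were 0.235, 0.0615 and 0.107 in iWAT and -0.0951, -0.00463 and 0.00937 in BAT. Differently numbered ones ran from -0.18 to 0.0702 in iWAT and from -0.0842 to 0.0795 in BAT. Whether the numbers pair libraries is not given in the sources used here.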
